A study of Mus musculus with 3 samples.

Results

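Mature Ccr7 dendritic cells (DCs) are the cells described here, from 2 mouse bone marrow cultures grown with GM-CSF. They were chosen by their measured values: at least 2 UMIs of Ccr7, at least 3 UMIs of Fscn1 and at most 1 UMI of Mki67 and Top2a together, where a UMI is the tag that counts each captured RNA molecule once. Of the 7257 cells kept from the untreated culture 2276 met this rule (31.4%, 95% interval 30.3 to 32.4), and of the 8825 cells kept from the culture given VD3 2216 did (25.1%, 24.2 to 26.0). Together they are 4492 of 16082 culture cells, in a series with 18226 cells kept. After the description of the cells, the comparison asks how gene levels differ between VD3 and untreated culture within them.

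The series is about macrophages that gather around human skin placed under the skin of mice, and about vitamin D in those macrophages. Bone marrow of C57/BL6 mice was cultured with GM-CSF for 7 days, and the library Co-Mac is the untreated culture. The library VD-Mac is the same kind of culture given 1,25 dihydroxy-cholecalciferol, the active form of vitamin D3 and called VD3 here, at 1 uM for 24 hours. A further library, from explanted human split-thickness skin grafts (hSTSG) at day 14 with 5 mice pooled, was used only for a short description. Both cultures are titled as macrophages, and the title covers the culture as a whole.

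After filtering for at least 300 genes, fewer than 100000 gene UMIs and less than 10% of UMIs from mitochondrial genes, Co-Mac kept 7257 of 7866 barcodes and VD-Mac 8825 of 9794. The kept cells carry 132574308 gene UMIs in Co-Mac and 116461484 in VD-Mac, with a median per cell of 15804 and 12089. The members carry 36621445 and 36006689 of these, with medians of 14458.5 and 14316 UMIs and 2934.5 and 2992 genes, so their depth is nearly the same in both cultures. The members' median mitochondrial share is 5.54% in Co-Mac and 6.07% in VD-Mac, beside 5.17% and 5.33% in the other kept cells. Between the culture libraries 19 barcodes are shared (0.242% of the smaller one), and 1 barcode is a member in both. Each condition is 1 library, so there are no replicates and no test was made; the intervals given are 95% intervals for counting error only.

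Dendritic cells sample their surroundings, and when they mature they turn from uptake to the display of antigen to T cells. On maturation they gain CCR7, the receptor that guides them along lymph vessels to lymph nodes, and they bundle actin with fascin, the product of Fscn1. VD3 acts through the vitamin D receptor, a nuclear receptor that pairs with the retinoid X receptor on DNA, and its enzyme target Cyp24a1 breaks the hormone down again.

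The rule genes describe the members and carry no finding. Ccr7 stands at 1176 CPM (UMIs scaled to the summed depth of these cells) in untreated and 1420.5 CPM in VD3 members, beside 137 and 397 CPM in the other kept cells. Fscn1 stands at 704 and 475 CPM, beside 33.9 and 40.01 CPM. The markers that played no part in the choice are more informative about identity. Ccl22, a chemokine for T cells, reaches 3216 CPM in untreated members and 465 CPM in the other cells. Ccl5, a chemokine for T cells and monocytes, reaches 8739 CPM beside 1012. Il12b, a subunit of interleukin 12 that steers T cells, reaches 33.7 CPM beside 2.77.

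Genes of DCs in general and of other lineages were read as a check on the label. Zbtb46, a transcription factor of conventional DCs, has 38.3 CPM in untreated and 46.1 CPM in VD3 members, beside 11.3 and 16.2 CPM in the other cells. The integrin gene Itgax is lower in members than in the other cells, at 31.6 and 31.3 CPM beside 189.7 and 98.6. Flt3, the receptor for a DC growth factor, was seen in 1.45% and 0.316% of members after every cell was thinned to 2000 UMIs. Of the 34 genes listed for the mature DC programme 32 are higher in members than in the other cells of both cultures. That list was chosen with earlier results of these data known and holds the markers Ccl22, Ccl5 and Il12b. Its count therefore describes the members and is no independent check of the label. The lists of DC subsets go the other way. All 9 genes for monocyte-derived and type 2 conventional DCs are lower in members in both cultures. They sum to 2530 and 1476 CPM, beside 6438 and 2876 in the other cells. Of 11 genes for cross-presenting DCs 2 are higher and 7 lower in both cultures. The macrophage list of 17 genes sums to 1414 CPM in untreated and 1258 CPM in VD3 members, against 14513 and 9167 CPM in the other cells. Its most abundant gene is Lyz2, and no gene of it is at 0. Neutrophil genes sum to 304 and 407 CPM beside 7493 and 8882 in the other cells, with S100a8 the most abundant and Retnlg at 0. B cell genes sum to 3.77 and 5.00 CPM, T and NK cell genes to 0.573 and 0.722 CPM, and stromal genes to 0.382 and 0.472 CPM. The members thus carry the mature DC genes with macrophage RNA at a low level, within cultures titled as macrophages.

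The Fscn1 limit divides a continuous range of cells, more so with VD3. Of the non-cycling cells with at least 2 Ccr7 UMIs, 2750 in Co-Mac and 3618 in VD-Mac, 82.8% (81.3 to 84.2) and 61.2% (59.6 to 62.8) also have 3 or more Fscn1 UMIs. Cells at exactly 2 Fscn1 UMIs number 158 and 369, and cells at exactly 3 number 156 and 364. Ccl22 just outside and just inside that step is 2703 and 2916 CPM in Co-Mac, and 1359 and 1391 CPM in VD-Mac. Lyz2, the lysozyme gene of macrophages, is 1074 outside and 843 CPM inside in Co-Mac, and 452 and 675 CPM in VD-Mac. Counted without the Fscn1 limit, cells with at least 2 Ccr7 UMIs are 37.9% (36.8 to 39.0) of Co-Mac and 41.0% (39.97 to 42.0) of VD-Mac, so the order of the libraries turns round. The lower share of members with VD3 thus depends on the Fscn1 limit. On the Ccr7 side few cells lie near the limit: with 3 or more Fscn1 UMIs, 12 cells in Co-Mac and 13 in VD-Mac have 1 Ccr7 UMI.

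The 15 leading genes of the members, taken as the highest ratios over the other kept cells in the lower of the 2 libraries with Ccr7 and Fscn1 left out, are given here by role. Protection from proteases of killer granules is given by Serpinb9, at 252 CPM in untreated members beside 29.3 in the other cells. Its relative Serpinb6b, which inhibits granzyme A, has the highest lower ratio of all, 437 CPM beside 37.998 untreated and 245 beside 54.7 with VD3. Contact with T cells is represented by Cd83, a surface protein that keeps MHC class II and CD86 on display, at 464 CPM beside 56.4. Some of the 15 act in signalling through receptors. Adora2a, an adenosine receptor, has 54.5 CPM beside 7.504, and it is level between the cultures at 56.6 CPM with VD3. Ramp3, which modifies receptors of the calcitonin family, has 119 CPM beside 11.9. Adcy6, an adenylyl cyclase, has 85.96 CPM beside 10.4, and the G protein subunit gene Gnb4 has 209 beside 29.5.

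Other leading genes belong to membranes, calcium and the cytoskeleton. Cacnb3, a beta subunit of voltage-gated calcium channels, stands at 655 CPM in untreated members beside 76.8 in the other cells. Fnbp1l, which bends membranes and drives actin assembly, stands at 140.2 beside 23.96. Stxbp6, a regulator of vesicle fusion, stands at 107 beside 15.7. Tbc1d4 acts on Rab proteins in vesicle traffic, at 108 CPM beside 21.2. Tmcc3 encodes a membrane protein of the endoplasmic reticulum, at 162 beside 24.6. Adam23, a surface protein that binds integrins, has 122 CPM untreated and is the only leading gene past 2-fold with VD3, at 55.2 CPM (log2 ratio -1.15, -1.22 to -1.07). The remaining leading genes are Nudt17, a hydrolase at 153 CPM beside 17.1, and Gm16685, a long non-coding RNA at 51.7 beside 5.01. All 15 are higher in members than in other cells in both cultures, by construction of the ranking. The other cells include those with at least 2 Ccr7 UMIs but fewer than 3 of Fscn1. There Cacnb3 stands at 478 CPM in Co-Mac and 445 in VD-Mac, and Cd83 at 352 and 325, so neither gene is limited to members.

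**Figure D1:**
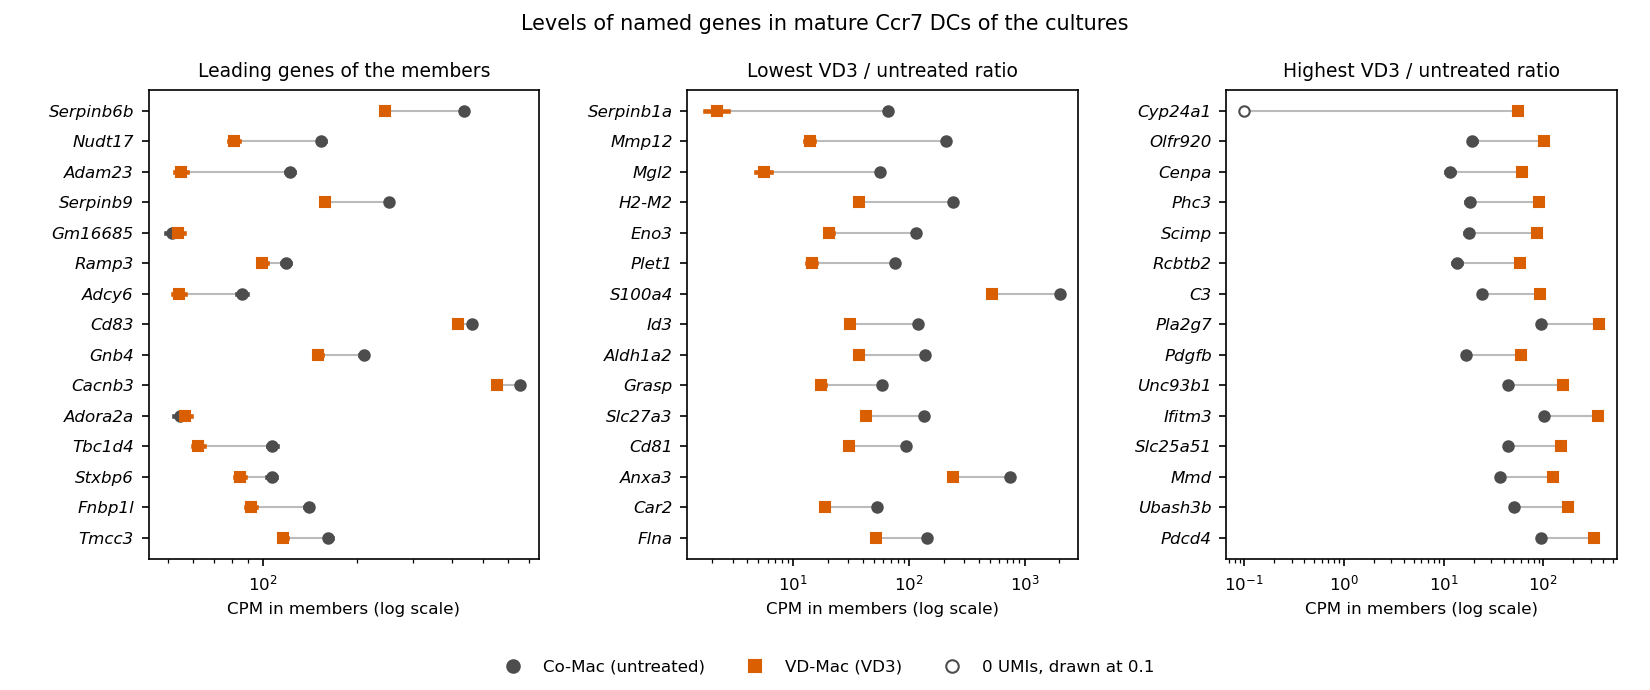
CPM of the 15 leading genes, the 15 lowest and the 15 highest VD3 over untreated ratios in members, with 95% counting intervals, on a log scale. Circles are the untreated culture and squares the VD3 culture; the open circle marks Cyp24a1 with 0 UMIs, drawn at 0.1.

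Ranked by the lower of both cultures, the genes that vary most among members are S100a8, S100a9, Ccl5, Lyz2, Fth1, Malat1 and Ccl17. Among 3450 genes the variance over the mean after thinning has a median of 1.02 in both cultures. Ccl5 has 19.9 untreated and 17.0 with VD3, and Ccl17, a chemokine for T cells made by DCs of the monocyte kind, has 7.32 and 9.66. The neutrophil gene S100a8 has the highest value, 68.8 and 43.4. Fth1, a chain of the iron store ferritin, has 10.6 and 9.496, and Malat1, a nuclear non-coding RNA, has 9.42 and 9.67. Il12b is seen in 6.68% of untreated and 5.19% of VD3 members at 2000 UMIs, and in 19.3% and 16.2% without thinning, and the tenth of members highest in it hold 81.8% and 87.4% of its UMIs. Members with and without a gene were compared on counts thinned to 2000 UMIs per cell, where each cell weighs the same, so these CPM differ from the CPM of summed UMIs used elsewhere. The 152 untreated members with Il12b at that depth have Ccl5 at 17138 CPM beside 9438 in those without, and Ccl17 at 806 CPM beside 1772. In the VD3 culture the 115 members with Il12b show the same order, with Ccl5 at 11230 CPM beside 5371 and Ccl17 at 369.6 beside 929. Aldh1a2, the enzyme that makes retinoic acid, goes with the opposite order. The 381 untreated members with Aldh1a2 have Ccl5 at 6274 CPM beside 10692 in those without, and Il12b at 15.7 CPM beside 60.7. With VD3 the 130 members with Aldh1a2 have Ccl5 at 2912 CPM beside 5847, and Il12b at 0 beside 39.1.

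Within the members 6756 genes were measured for the comparison with VD3, which needed 20 UMIs in all and 10 CPM in 1 library. A gene that reaches 10 CPM in only 1 culture is thus measured through that culture. At a ratio of at least 2, 184 genes are higher with VD3 (2.72%) and 164 are lower (2.43%). Which side has more genes depends on the scaling, with 154 higher and 196 lower when the median ratio is set to 1. The median log2 ratio of all measured genes is 0.07, and the 5th to 95th percentiles run from -0.69 to 0.71. Genes below are taken by role, and a gene is said to rise or fall only past 2-fold. Each count of list genes past 2-fold is to be read beside these shares of 2.72% and 2.43%, and each list median beside 0.07. A count of 1 in a short list is therefore near the share over all genes.

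Another population of the same cultures, called macrophage comparison cells here, gives each ratio a value beside it. They are 972 untreated and 761 VD3 cells with at least 4 UMIs of Adgre1, Csf1r and Fcgr1 together and no Ccr7. Like the members they have at most 1 UMI of Mki67 and Top2a together. In them Adgre1 is at 61.1 and 144 CPM and Fcgr1 at 76.9 and 24.6, so the rule may pick unlike cells in each culture. The comparison cells share libraries with the members, so values are set side by side only. In them 7515 genes were measured, with 299 higher (3.98%) and 410 lower (5.46%) past 2-fold and a median of -0.06. Shares of cells with a gene, after every cell was thinned to 2000 UMIs, rest on 2275 untreated members (1 left out for depth) and 2216 VD3 members (0 left out), and on 969 (3 left out) and 761 (0 left out) comparison cells, with median depths of 14458.5 and 14316, and 19252.5 and 14259 UMIs.

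Of the marker chemokines Ccl22 passes 2-fold with VD3, and it is among the 8 genes of the mature programme that do, all of them lower. Ccl22 fell from 3216 to 1553 CPM (log2 -1.05, -1.06 to -1.04), with 117770 and 55917 UMIs. The ratio of Ccl22 is close to the limit of 2, and it is -0.99 with at least 4 Ccr7 and 6 Fscn1 UMIs and -0.98 without the limit on cycling. The share of members in which it is seen at 2000 UMIs is 97.2% untreated and 83.4% with VD3, so it remains a gene of most members; 3.72% and 3.02% of the macrophage comparison cells have it. Ccl5 does not reach 2-fold, at 8739 and 4949.9 CPM (-0.82, -0.83 to -0.81), and its shares are 93.9% and 83.8%. Ccl17, which draws the same T cells as Ccl22, is just short of 2-fold, at 1947 and 992 CPM (-0.97, -0.99 to -0.96), with shares of 73.9% and 49.5%. The interleukin 12 subunit gene Il12b is nearly level, at 33.7 and 30.5 CPM (-0.15, -0.26 to -0.03). Of the 33 measured genes of the mature DC programme 8 are lower and 0 higher past 2-fold, and their median log2 ratio is -0.44 beside 0.07 for all genes. The summed level of the 34 listed genes is 37877 CPM untreated and 23383 CPM with VD3, and its most abundant gene is Cst3, a protease inhibitor of DCs, at 15077 and 8616 CPM. In the macrophage comparison cells, which come from the same libraries, the median of this list is -0.05 over the 19 genes measured there.

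Signals for T cells show the same direction in part. Cd40, the receptor for CD40 ligand on helper T cells, fell from 34.9 to 10.1 CPM (-1.78, -1.95 to -1.61). Its thinned share is 7.69% untreated and 2.39% with VD3. Cd86, a ligand of CD28, is at 201 and 135 CPM (-0.57), while Cd80, the other such ligand, is at 126 and 167 CPM (0.40). Tnfsf4, the OX40 ligand that prolongs T cell responses, is just short of 2-fold at 21.7 and 10.9 CPM. Slamf1, a self-binding receptor shared by DCs and T cells, fell from 25.3 to 6.67 CPM (-1.93), and Cd48, a ligand in the same family, from 198 to 72.96 (-1.44). Cd83 is the most abundant of the costimulatory list and differs little, at 464 and 416 CPM. In all, 11 genes of 14 listed were measured, 3 are lower and 0 higher, beside 2.43% lower of all measured genes. The list median is -0.32 beside 0.07 for all genes. Tnfsf18 is at 0 in both cultures.

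Genes that hold T cells back differ in their ratios. Cd274, the ligand PD-L1, is level at 204 and 209 CPM (log2 0.04), seen in 32.5% and 31.9% of members at 2000 UMIs. Pdcd1lg2, the other PD-1 ligand, fell from 62.3 to 23.2 CPM (-1.42, -1.54 to -1.31), with thinned shares of 9.98% and 4.603%. Il4i1, an amino acid oxidase that slows T cells, stays under 2-fold, at 566 and 1013 CPM (0.84), with shares of 64.5% and 79.4%. Aldh1a2, whose retinoic acid favours regulatory T cells, fell from 138 to 37.2 CPM (-1.90, -1.98 to -1.81). Its thinned share is 16.7% and 5.87%, beside 0.516% and 0.263% in macrophage comparison cells, and without thinning it is in 4.84% and 1.18% of those cells. Across 13 measured checkpoint genes 2 are lower and 0 higher, with a median of -0.28.

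Cytokine receptors and signalling genes of the mature programme add to the lower side. Il15ra, which presents interleukin 15 to lymphocytes, fell from 51.6 to 21.9 CPM (-1.24), while the cytokine gene Il15 itself is at 38.4 and 54.9 CPM (0.52). Tnip3, an inhibitor of NF-kB, fell from 287 to 105 CPM (-1.45), the only NF-kB gene of 23 measured past 2-fold. The inhibitor gene Nfkbia, the most abundant of that list, is at 428 and 663 CPM (0.63). The list median is -0.15. Bcl2l14, of the Bcl2 family, fell from 26.2 to 9.58 CPM (-1.45). Apol7c, an apolipoprotein L gene of mature DCs, fell from 39.5 to 16.9 CPM (-1.22), and Zmynd15, a zinc finger gene, from 24.2 to 10.6 (-1.19). With mitochondrial UMIs under 5% Apol7c is at -0.97.

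Genes for antigen display stay within 2-fold. For MHC class II, 10 of 12 listed genes were measured, 0 passed in either direction, and the median is -0.45. Cd74, the invariant chain and most abundant of the list, is at 10274 and 7130.3 CPM (-0.53). Ciita, the master regulator of the class, is at 33.8 and 18.997 CPM (-0.83), and Ctss, the protease that trims the invariant chain, is at 792 and 400.3 (-0.98). The 18 genes of MHC class I, which shows peptides to CD8 T cells, have a median of -0.09 with 0 passing. H2-K1, a classical class I heavy chain, is at 1869.7 and 2580.5 CPM (0.46), and the light chain B2m at 2552 and 2702. A non-classical gene, H2-M2, is different and fell from 239 to 36.9 CPM (-2.70, -2.78 to -2.61). Its thinned share is 32.6% untreated and 6.72% with VD3, beside 5.99% and 0.263% in the macrophage comparison cells.

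The direct target of the hormone appears with VD3. Cyp24a1 has 0 UMIs in untreated members and 2019 in VD3 members, 56.1 CPM (53.7 to 58.6), at least 684-fold higher when 0 is replaced by a floor of 3 UMIs over the members. At 2000 UMIs it is seen in 0 of 2275 untreated members and in 6.50% (5.51 to 7.61) of VD3 members. The untreated share has a 95% upper limit of 0.162%, and without thinning the shares are 0% and 20.4%. These values concern detection, and Cyp24a1 at a level too low to be captured would not be seen. In the macrophage comparison cells of the VD3 library its share is 46.6% and its level 463 CPM, so members hold 12.1% of that level. On thinned counts the 144 members with Cyp24a1 have C1qb at 233 CPM beside 29.4 in the others, and Lyz2 at 1326 beside 198; RNA from macrophages in these cells was not tested. Among the 1495 untreated and 1290 VD3 members without a UMI of 7 macrophage genes (Adgre1 and the C1q chains among them), Cyp24a1 has 0 and 421 UMIs, at 22.7 CPM with VD3, at least 163-fold higher against the same floor. The receptor gene Vdr is at 93.3 and 137 CPM in members (0.55, 0.49 to 0.62), beside 29.8 and 155 CPM in the macrophage comparison cells (2.38). Vdr is thus higher in members than in those cells without VD3, and it passes 2-fold only in the macrophage comparison cells. Ncor1, a corepressor and the most abundant gene of the receptor list, is at 121 and 139 CPM. Of 10 measured genes of that list only Cyp24a1 passed 2-fold, and the median is 0.16. Cyp27b1, the enzyme that makes the active hormone, is at 0 in both.

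The highest ratios include genes whose level is above that of the macrophage comparison cells and genes whose level is below it. Olfr920, an olfactory receptor gene, rose from 19.5 to 103 CPM (2.39, 2.28 to 2.51), and has 3.18 and 4.04 CPM in the macrophage comparison cells. Phc3, a polycomb protein of gene silencing, rose from 18.2 to 91.4 CPM (2.32), with thinned shares of 3.16% and 15.9%, beside 3.82% and 5.65% of macrophage comparison cells. Mmd, a membrane protein first found as monocytes become macrophages, rose from 36.6 to 126 CPM (1.78), against 11.8 and 15.7 in macrophage comparison cells. Pdcd4 restrains translation, and it rose from 93.99 to 322 CPM (1.78, 1.72 to 1.83), and from 11.6 to 46.6 CPM (2.01) in the macrophage comparison cells. Slc25a51, the mitochondrial carrier of NAD, rose from 43.96 to 152 CPM (1.79). Scimp, an adaptor in MHC class II and Toll-like receptor signalling, rose from 17.9 to 85.96 CPM (2.26), while the macrophage comparison cells stay level at 114 and 119 CPM. Ubash3b, a phosphatase that dampens receptor signalling, rose from 51.1 to 176 CPM (1.78), and its ratio in macrophage comparison cells is -0.37. Cenpa, the centromere histone, rose from 11.6 to 60.6 CPM (2.39) in cells chosen for little Mki67 and Top2a, and from 35.2 to 104 CPM (1.56) in the macrophage comparison cells.

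Other high ratios go with high levels in macrophages. Ifitm3, an interferon-induced block to viral entry, rose from 101 to 356 CPM (1.82), against 341 and 3514 in the macrophage comparison cells, and with mitochondrial UMIs held under 5% the Ifitm3 ratio is 0.86. C3, the central complement protein, rose from 24.4 to 92.9 CPM (1.93), against 153 and 874. Unc93b1 carries Toll-like receptors to endosomes, and it rose from 44.7 to 158 CPM (1.82). Pla2g7, which breaks down platelet-activating factor, rose from 95.2 to 359 CPM (1.91, 1.86 to 1.97). Rcbtb2, a protein with chromosome condensation repeats, rose from 13.8 to 57.96 CPM (2.07), against 54.3 and 292. With VD3, 8 of the 15 highest genes are lower in members than in macrophage comparison cells and 7 are higher. Complement and lipid receptor genes of macrophages rose beside them: Trem2, a lipid receptor, from 32.6 to 89.5 CPM (1.46) and C1qa, a C1q chain, from 11.5 to 39.99 (1.80). The other chains rose less, C1qb from 34.1 to 76.99 CPM (1.18) and C1qc from 11.1 to 23.9 (1.11). In all, 4 of the 12 measured macrophage genes are higher and 0 lower, with a median of 0.66 beside 0.07 for all genes. This median changes sign with mitochondrial UMIs under 5%, without the members highest in macrophage genes, and in members without a UMI of the 7 macrophage genes. In the macrophage comparison cells it is 0.37 over 17 genes. The listed genes sum to 1414 and 1258 CPM, with Lyz2 at 610 and 452. Whether this RNA belongs to the members was not tested. In members without a UMI of the 7 macrophage genes, Ifitm3 is 63.4 and 133 CPM (1.06), C3 9.33 and 30.5 (1.71), Trem2 16.3 and 48.8 (1.58). With mitochondrial UMIs under 5%, Trem2 is at 0.91 and C1qa at 0.71, while C1qb turns to -0.12 and C1qc to -1.31.

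The cytokine genes that rose in all members are growth factors. Hbegf, a ligand of the EGF receptor, rose from 0.492 to 23.1 CPM (5.55, 4.88 to 6.31), on 18 and 830 UMIs, and from 6.88 to 151 CPM in the macrophage comparison cells. Vegfa, which drives vessel growth, rose from 1.83 to 11.8 CPM (2.69). Pdgfa, a growth factor for mesenchymal cells, rose from 15.2 to 45.1 CPM (1.57), against 15.7 and 284 in the macrophage comparison cells, and Pdgfb, its partner chain, from 16.8 to 60.3 (1.84). Pdgfb is seen in 3.52% and 11.5% of members at 2000 UMIs, beside 2.48% and 5.52% of macrophage comparison cells. Tgfb1, the most abundant of the cytokine list, is at 59.4 and 88.3 CPM (0.57). Of 25 listed cytokine genes 11 were measured, 4 are higher and 0 lower, and the median is 0.52 beside 0.07 for all genes. Among these 4, Hbegf and Vegfa reach 10 CPM only with VD3, so they were measured through that culture alone. In the macrophage comparison cells the list median is 1.51 over 13 genes, beside -0.06 for all genes. Il12a, Ifnb1 and Csf2 are at 0 in both cultures. Il1rn, which blocks the interleukin 1 receptor, is at 13.6 and 17.6 CPM (0.37), and at 7.52 and 16.6 CPM (1.15, past 2-fold) in members without a UMI of the 7 macrophage genes. Ccl4, a chemokine for monocytes and T cells, is the only chemokine gene that rose, from 10.5 to 36.2 CPM (1.78), and it is at 0.89 without the members highest in macrophage genes. Among 10 measured of 17 chemokine genes 1 rose and 1 fell, with a median of -0.07.

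Transcription factors of DCs stay within 2-fold with 1 exception. Irf8, which directs cross-presenting and plasmacytoid DCs, rose from 239 to 517 CPM (1.11, 1.08 to 1.15), and its thinned share is 33.7% untreated and 55.6% with VD3. For Irf8 the ratio is 1.00, just under 2-fold, with members thinned to 2000 UMIs and 0.99 with no Fscn1 limit. It also belongs to the list of cross-presenting DCs, of which 1 of 4 measured genes rose. Irf4, the counterpart for the other conventional subset, is level at 63.8 and 58.5 CPM. Id2, the most abundant of the list, is at 1145 and 1019.5 CPM, and Batf3, a factor of cross-presenting DCs, at 302 and 261. Nr4a3, an early response nuclear receptor needed for DC migration, is at 208 and 116 CPM (-0.84). Across 14 measured factors the median is -0.12. Of the immediate early genes 3 of 12 measured are higher and 0 lower, with a median of 0.79. Jun, a subunit of AP-1, rose from 39.7 to 92.7 CPM (1.22), and Junb, the most abundant of these, is at 276 and 402 (0.54). Fos, a partner of Jun, rose from 9.07 to 19.7 CPM (1.12), and Fosb, its relative, from 8.82 to 18.6 (1.08), but with mitochondrial UMIs under 5% Fos is at 0.15 and Fosb at 0.20. Both Fos and Fosb reach 10 CPM only with VD3, so they were measured through that culture alone.

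**Figure D2:**
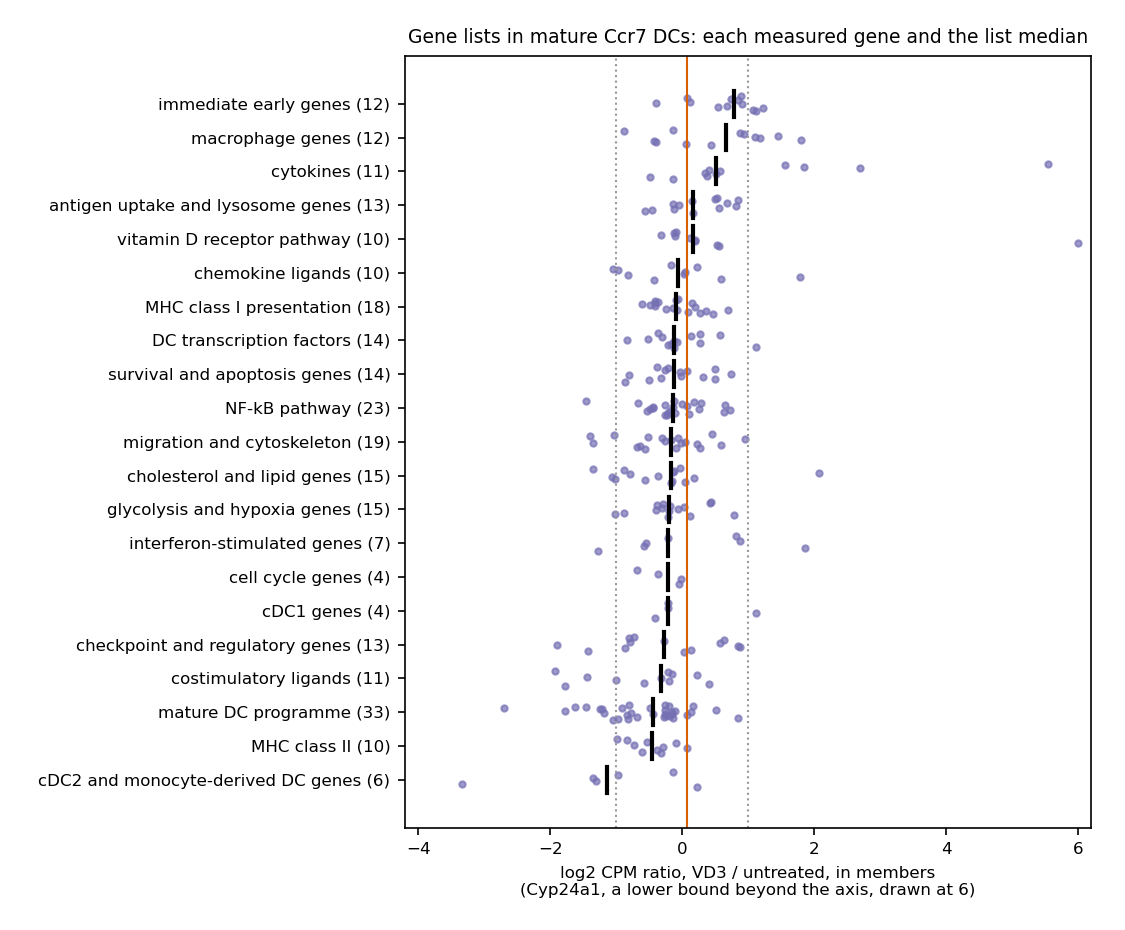
Log2 ratio of VD3 over untreated in members for each measured gene of each list with at least 4 measured genes. Black bars are list medians, the orange line the median of all measured genes, and dotted lines mark 2-fold in either direction. Cyp24a1, beyond the axis, is drawn at 6.

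The lowest ratios begin with a protease inhibitor. Serpinb1a, which inhibits neutrophil serine proteases, fell from 65.7 to 2.19 CPM (-4.90, -5.25 to -4.58), on 2406 and 79 UMIs. The macrophage comparison cells have 5.44 and 3.097 CPM, below the members without VD3 and above them with it. Its thinned share in members is 8% and 0.316%. Eno3, a muscle form of the glycolytic enzyme enolase, fell from 115 to 20.4 CPM (-2.50, -2.61 to -2.39), with 2.93 and 2.41 CPM in macrophage comparison cells. Its shares are 21.6% and 4.56%. Metabolism and transport add further genes. Slc27a3, an acyl-CoA synthetase of the fatty acid transporter family, fell from 136 to 42.2 CPM (-1.69), and Car2, a carbonic anhydrase, from 52.7 to 18.7 (-1.49). Grasp, a scaffold protein of receptor traffic, fell from 58.5 to 17.4 CPM (-1.75). Id3, an inhibitor of E protein transcription factors, fell from 119 to 30.9 CPM (-1.95). The tetraspanin gene Cd81, which organises membrane receptors, fell from 94.5 to 30.3 CPM (-1.64).

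Other genes among the lowest are abundant in untreated macrophages. Mmp12, the macrophage elastase, fell from 211 to 13.9 CPM (-3.92, -4.05 to -3.79) in members and from 4464 to 349.6 CPM (-3.67) in macrophage comparison cells. Mgl2, a lectin of monocyte-derived DCs and macrophages, fell from 55.9 to 5.55 CPM (-3.33), beside 914 and 69.1. Plet1, a surface protein tied to DC migration, fell from 76.1 to 14.5 CPM (-2.39), beside 1503 and 184. The median untreated member has 0 UMIs of each of these genes. The tenth of untreated members highest in each gene holds 92.1% of the UMIs of Mmp12, 96.8% of Mgl2 and 96.3% of Plet1. Members hold 4.73% and 3.99% of the macrophage level of Mmp12, 6.11% and 8.04% of that of Mgl2, and 5.06% and 7.89% of that of Plet1. For the macrophage gene Lyz2 these values are 4.26% and 5.34%. In members without a UMI of the 7 macrophage genes, Mmp12 is 48.3 and 3.45 CPM (-3.81), Mgl2 10.8 and 0.970 (-3.48), and Plet1 18.2 and 5.76 (-1.66, a smaller fall). Lyz2 is still present there, at 118 and 56.6 CPM (-1.06, past 2-fold, against -0.43 in all members), so RNA of macrophage genes remains in these members, and whether macrophage RNA carries these ratios was not tested.

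Of the list for migration and cytoskeleton, Vim, Tuba1a and Itgam fell with VD3, and S100a4, Anxa3 and Flna, which stand outside that list, are among the 15 lowest ratios. Vim, the intermediate filament vimentin, fell from 4066 to 1548 CPM (-1.39), with thinned shares of 94.95% and 72.2%. S100a4, a calcium-binding protein of motile cells, fell from 2019.5 to 518 CPM (-1.96), with shares of 95.3% and 63.5%. Anxa3, a membrane-binding annexin, fell from 742 to 241 CPM (-1.62). Flna, which links actin filaments, fell from 143 to 51.7 CPM (-1.47). Tuba1a, an alpha tubulin, fell from 225 to 109 CPM (-1.04), and Itgam, the alpha chain of an adhesion integrin, from 20.7 to 8.14 (-1.35). Thinned to 2000 UMIs the ratio of Itgam is -0.58, and with mitochondrial UMIs under 5% that of Tuba1a is -0.92. Actb, the most abundant of the list, is at 12613 and 10219 CPM (-0.30), and Rac2, a GTPase of migration, is at 83.6 and 163 (0.96). Of 19 measured genes for migration and cytoskeleton 3 are lower and 0 higher, with a median of -0.17, beside -0.83 over the 17 measured in the macrophage comparison cells.

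Lipid genes diverge. Fabp5, a fatty acid carrier and the most abundant of the lipid list, fell from 6388 to 2492 CPM (-1.36), with thinned shares of 99.5% and 92.8%. Of the cholesterol pathway, Idi1, an isomerase of isoprenoid units, fell from 176 to 84.3 CPM (-1.07), and Hmgcs1, an early synthase, from 37.98 to 18.7 (-1.02), though Hmgcs1 is at -0.89 when members are thinned. Scd1, a desaturase, rose from 11.8 to 49.5 CPM (2.07). The list has 1 gene higher and 3 lower of 15 measured, with a median of -0.18. In glycolysis 1 of 15 measured genes is lower, Pfkp, a phosphofructokinase, at 56.3 and 27.8 CPM (-1.02; -0.87 thinned), and Gapdh, its most abundant gene, is at 1434 and 1379. Survival genes have 0 of 14 past 2-fold, led by Bcl2a1b, which blocks cell death, at 2494 and 2147 CPM. Genes of uptake and lysosomes, which mature DCs use less, have 0 of 13 past 2-fold and a median of 0.16.

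Interferon-stimulated genes are split. Mx1, a GTPase against viruses, fell from 117 to 48.5 CPM (-1.27), and Rsad2, an enzyme that makes an antiviral nucleotide, rose from 3.09 to 11.2 (1.86). Rsad2 reaches 10 CPM only with VD3. The median of the 7 measured is -0.21. The list for the monocyte-derived and type 2 conventional DCs is among the lowest, with 3 of 6 measured genes lower, 0 higher, and a median of -1.14, beside -2.10 over the 7 measured in macrophage comparison cells. Clec4a2, an inhibitory lectin, fell from 14.9 to 6.03 CPM (-1.31), at -0.69 without the tenth of members highest in UMIs, and Ccl17 is the most abundant of this list. The 3 lower genes are Mgl2, Itgam and Clec4a2. Untreated members hold 6.11%, 5.37% and 5.49% of the level of these genes in macrophage comparison cells, beside 4.26% for Lyz2. With VD3 members hold 8.04%, 7.01% and 18.9%, beside 5.34% for Lyz2, so Clec4a2 stands apart there. Whether macrophage RNA carries the ratios of this list was not tested.

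**Figure D3:**
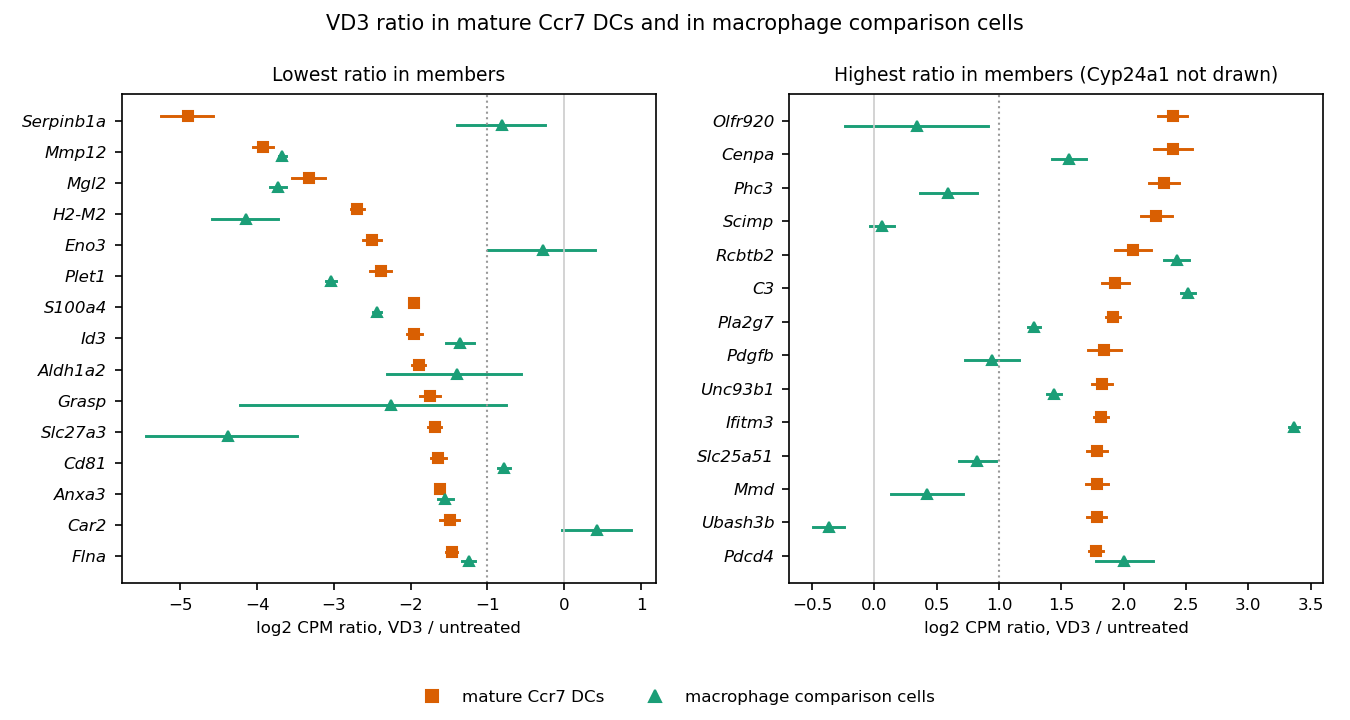
Log2 ratio of VD3 over untreated for the lowest and the highest genes of the members, in members (squares) and in macrophage comparison cells of the same libraries (triangles), with 95% counting intervals. Dotted lines mark 2-fold; Cyp24a1 is not drawn.

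Shares of cells were also set beside those in the macrophage comparison cells. Ccl17 is seen in 54.9% and 20.9% of the macrophage comparison cells at 2000 UMIs, so that gene is not limited to members. Vim is seen in 83.7% and 21.2% of them, S100a4 in 81.0% and 32.9%, and Fabp5 in 51.0% and 13.3%, and all of these fell past 2-fold in both populations. Irf8 is in 5.99% and 20.0% of the comparison cells. Ccl5 is in 8.67% and 6.18% of them, and Il4i1 in 1.55% and 5.26%. Serpinb1a is in 1.24% and 0.526% of them, and Eno3 in 0.826% and 0.788%. Cd40 is in 0.722% and 0% of them at 2000 UMIs, and in 5.97% and 1.45% without thinning. The checkpoint ligand Cd274 is in 15.9% and 16.7%, and Pdcd1lg2 in 9.49% and 2.23%. Il12b is in none of them at 2000 UMIs, and in 0.412% and 0.788% without thinning. Without thinning the members' shares are, for Ccl22, 100% and 99.2%, for Ccl17 95.9% and 88.9% and for Cyp24a1 0% and 20.4%. The order of the cultures for Cd274 turns, from 32.5% and 31.9% thinned to 88.5% and 89.2% unthinned. Unthinned, Aldh1a2 is in 50.4% and 23.8% of members, H2-M2 in 73.6% and 32.1%, Serpinb1a in 21.0% and 1.62%, Cd40 in 37.7% and 12.8%, and Irf8 in 82.3% and 94.6%.

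The ratios were read again in members without a UMI of the 7 macrophage genes. Of 6583 genes measured in them 166 are higher and 163 lower, of which 145 and 138 are also called in all members. Ccl22 is 3343 and 1602 CPM there (-1.06), and Ccl17 reaches 2-fold at 1622 and 784 CPM (-1.05). Serpinb1a is 83.4 and 1.56 CPM (-5.74), and Scimp is 13.4 and 84.5 (2.66). Aldh1a2 is 120.1 and 38.4 CPM (-1.65), and H2-M2 is 264 and 40.2 (-2.71). Hbegf is 0.372 and 15.1 CPM (5.35). Of 64 named genes past 2-fold in all members, 9 have a ratio under 2-fold in these. They are Ccl4 at 1.53 and 2.21 CPM, the C1q chains, which are at 0 by construction, and Tuba1a (-0.97), Pfkp (-0.81), Clec4a2 (-0.72), Fos (0.91) and Fosb (0.75). Vegfa, at 1.53 and 8.78 CPM, and Itgam, at 7.11 and 3.12, keep their ratios past 2-fold but fall under the limit of 10 CPM, as do Ccl4, Clec4a2 and Fos, and so are not called there.

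In the library of the explanted skin grafts 31 of 2144 kept cells met the same rule (1.45%, 0.984 to 2.05). Their genes of the mature DC programme sum to 32956 CPM, beside 37877 in untreated and 23383 in VD3 culture members. The balance of markers in these graft cells differs, with Tbc1d4 at 2453 CPM, Ramp3 at 1284 and Serpinb9 at 1486, and with Ccl22 at 385. Il12b is at 113 CPM and Cyp24a1 at 0. The counts rest on 426017 UMIs, and these cells come from explanted grafts in place of a culture.

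Promoters of 300 bases at the transcription start were searched to describe the DNA next to the named genes. Searched on both strands were the hexamer AGGTCA and its forms AGTTCA or else GGTTCA, to which nuclear receptors such as the vitamin D receptor bind, and also GGGNNTTTC for NF-kB. Of 15 genes with the highest ratios 10 had a promoter in the reference table and 7 of these hold a hexamer. Of the 15 lowest 12 had 1 and 3 hold a hexamer, and of the 15 leading genes 10 had 1 and 0 do. Among all 32851 promoters 35.0% hold any of the 3, AGGTCA alone 16.3%. GGGNNTTTC is in 0 of the named promoters and 4.36% of all. A match describes the sequence only. Shown from RefSeq genes on GRCm38.p6 are C3 (chr17:57228087-57228386, minus strand) and Phc3 (chr3:30969366-30969665, minus) of the highest, Eno3 (chr11:70656926-70657225, plus) of the lowest and the marker Ccl22 (chr8:94745434-94745733, plus), with matches in capitals.
C3: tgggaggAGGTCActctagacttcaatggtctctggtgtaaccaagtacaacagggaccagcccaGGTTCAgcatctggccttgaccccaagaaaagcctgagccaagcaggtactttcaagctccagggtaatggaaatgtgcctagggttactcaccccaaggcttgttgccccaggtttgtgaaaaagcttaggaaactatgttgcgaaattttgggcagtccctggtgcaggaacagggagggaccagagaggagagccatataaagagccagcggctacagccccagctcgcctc
Phc3: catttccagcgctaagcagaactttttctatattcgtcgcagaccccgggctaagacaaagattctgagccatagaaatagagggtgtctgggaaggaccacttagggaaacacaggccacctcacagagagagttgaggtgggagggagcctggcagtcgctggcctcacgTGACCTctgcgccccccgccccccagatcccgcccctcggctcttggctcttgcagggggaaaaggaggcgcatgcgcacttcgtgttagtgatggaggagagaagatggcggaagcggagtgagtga
Eno3: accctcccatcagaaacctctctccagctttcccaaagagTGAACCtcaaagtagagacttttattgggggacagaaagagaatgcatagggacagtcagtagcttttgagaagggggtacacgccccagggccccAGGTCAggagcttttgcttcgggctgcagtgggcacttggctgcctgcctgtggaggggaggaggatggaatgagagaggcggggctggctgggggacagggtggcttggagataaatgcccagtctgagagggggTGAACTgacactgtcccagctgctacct
Ccl22: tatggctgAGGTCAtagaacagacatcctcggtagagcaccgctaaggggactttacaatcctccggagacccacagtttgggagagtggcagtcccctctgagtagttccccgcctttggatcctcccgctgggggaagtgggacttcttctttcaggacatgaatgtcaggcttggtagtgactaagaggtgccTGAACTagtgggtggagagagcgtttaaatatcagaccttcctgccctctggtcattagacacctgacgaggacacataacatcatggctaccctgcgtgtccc

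Each culture is 1 library, so differences between cultures and the effect of VD3 cannot be told apart here. Protein levels, migration and T cell responses were not analysed here.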

How the data were processed

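The counts are those the authors deposited, as raw UMI counts per barcode and gene; per the file headers they were made with Cell Ranger 3.1.0, and the submitters' notes name Seurat 3.1.1 and mm9. CPM were computed here from the deposited counts as summed UMIs of the members over all their gene UMIs, and each ratio is VD3 CPM over untreated CPM. Splits of members by a gene use counts thinned to 2000 UMIs per cell. CPM have exact Poisson intervals, shares have Clopper-Pearson intervals, and ratios have exact intervals from the binomial split of the UMIs. A floor of 3 UMIs stands for 0 in a fold. No doublet caller was used; cells at or above 100000 UMIs were left out. Named are the markers, 15 leading genes, the 15 highest and 15 lowest ratios among genes of at least 50 CPM, and list genes past 2-fold or most abundant in their list. The members and lists were chosen with earlier results of these data known. The code was tested on simulated data. Tools were Python 3.11.15, numpy 2.4.6, scipy 1.17.1, pandas 2.3.3 and matplotlib 3.10.9.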

Additional observations from a re-analysis of the deposited data

How the results depend on the processing

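The members' share of kept cells in Co-Mac and VD-Mac is 36.2% and 35.0% with at least 1 UMI of Ccr7 and of Fscn1, 23.7% and 14.0% with at least 4 and 6, 21.6% and 14.2% with each cell thinned to 5000 UMIs, and 26.9% and 15.3% under 5% mitochondrial UMIs. It is 32.9% in Co-Mac without the cells above the 95th percentile of UMIs. With no Fscn1 limit it is 37.9% and 41.0%, the only setting in which the order of the libraries turns. At 50 CPM or more 54 genes are higher and 55 lower of 2344, because fewer genes are counted, and with no filter but 1 UMI 1977 and 1880 of 17246. All other counts stay within 1.5 times, but the side with more genes changes. There are 154 higher and 196 lower with the median ratio set to 1, and 148 and 205 under 5% mitochondrial UMIs. Without the limit on cycling there are 154 and 217. Under 5% mitochondrial UMIs the log2 ratios of C1qb and C1qc reverse to -0.12 and -1.31, and the cause was not tested. The 30 highest and lowest genes keep their direction throughout, and only Ifitm3 drops under 2-fold, at 0.86 in that setting. Of 64 named genes past 2-fold, 55 to 64 keep a ratio past it in each setting, before the limit on CPM. The settings with no Fscn1 limit and with only members lacking UMIs of the 7 macrophage genes were chosen after the data were seen. No paired analysis was possible because each condition is 1 library. Genes under 10 CPM in both libraries were not compared.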

Other observations

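Cells with at least 2 Ccr7 UMIs but fewer than 3 of Fscn1 number 474 in Co-Mac and 1402 in VD-Mac. Their Ccl22 level is 2693 and 1295 CPM, that of Ccl5 6651 and 5049, that of Il12b 16.4 and 25.2, and that of Lyz2 1414 and 709.6. Of 6996 genes measured in them 149 are higher and 216 lower with VD3.

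In the 31 members from the explanted skin grafts, Cd40 is at 366 CPM, Nr4a3 at 1852, Zmynd15 at 488 and Ccl17 at 91.5.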
